A study of Mus musculus with 4 samples.

Results

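Trypsinogens and pancreatic-type lipases were followed in Paneth cells of the mouse small intestine through 8 of the 27998 genes in the count tables, namely Try4, Try5, Try10, Prss1, Prss2, Prss3, Pnliprp1 and Pnliprp2. These genes were picked by symbol, with their counts in these same libraries already known, so their values are given as a description and without a test. Of the 8 genes, 4 had at least 1 count in some library (Try4, Try5, Pnliprp1 and Pnliprp2), and 3 passed the filter on low counts (Try5, Pnliprp1 and Pnliprp2).

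The study asked what the loss of Slc7a5, a subunit of an amino acid transporter, does to crypt cells. It profiled single cells from 2 libraries of Slc7a5 fl/fl control mice, which carry floxed Slc7a5 alleles without Cre, and 2 libraries of Slc7a5 IEC-KO mice, in which a villin-driven Cre removes a floxed exon of Slc7a5 throughout the intestinal epithelium, so that every epithelial lineage and not only Paneth cells is targeted. All mice were 8 weeks old, and live EpCAM+ CD45- cells of small-intestinal crypts were sorted and prepared with the version 2 kit of the 10x 3′ chemistry, which counts unique molecular identifiers (UMIs) near the 3′ ends of transcripts. The labels name 4 mice without saying how they were divided among the libraries, so 2 libraries of one genotype may differ only technically, and p-values then measure no more than that spread.

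Trypsinogens are inactive precursors of trypsin that acinar cells of the pancreas store in zymogen granules, and enteropeptidase on the duodenal brush border cuts off their activation peptide. Trypsin then activates the other pancreatic zymogens, the chymotrypsinogens, proelastases, procarboxypeptidases and prophospholipase among them. Paneth cells sit at the crypt base and store antimicrobial peptides, above all alpha-defensins, in secretory granules; human Paneth cells hold trypsinogen that processes their alpha-defensins, whereas mouse Paneth cells use the metalloproteinase matrilysin for this step. Pnliprp2 encodes a lipase that acts on galactolipids and phospholipids, and Pnliprp1 a close relative with little known lipase activity of its own.

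The 6 trypsinogen genes lie together on mouse chromosome 6, within the T-cell receptor beta locus, and are hard to tell apart by sequence. In the GENCODE M21 annotation of GRCm38, the same assembly as the mm10 build of the count tables, Try4 spans chr6:41302269-41305532 on the plus strand and Try5 chr6:41311233-41316841 on the minus strand. Try10 (chr6:41354105-41357914), Prss3 (chr6:41373814-41377678), Prss1 (chr6:41458932-41463786) and Prss2 (chr6:41521787-41525079) follow, and each of the 6 has 5 exons and a coding sequence of 741 bases. The coding sequences of Try4 and Try5 differ at 19 bases (97.4% identity), while Try5 is 93.5% identical to Try10, 92.2% to Prss1, 91.5% to Prss3 and 90.3% to Prss2. Pnliprp1 (chr19:58728887-58744169, 13 exons) and Pnliprp2 (chr19:58759719-58777534, 12 exons) are neighbours on chromosome 19 with only 65.9% identity over 1403 aligned coding bases.

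Because 3′ libraries read the end of a transcript, the last 90 coding bases, stop codon included, are shown for the trypsinogen that carried nearly all counts, for its closest copy and for 2 that had none. All 4 stretches lie in the last exon, and capitals mark the bases that differ from Try5. They were read from the GENCODE M21 transcripts, and the positions on GRCm38 are chr6:41311277-41311366 (minus strand) for Try5, chr6:41305399-41305488 for Try4, chr6:41463644-41463733 for Prss1 and chr6:41524933-41525022 for Prss2.
Try5: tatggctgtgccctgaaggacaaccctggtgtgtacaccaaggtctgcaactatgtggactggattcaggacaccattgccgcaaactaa
Try4: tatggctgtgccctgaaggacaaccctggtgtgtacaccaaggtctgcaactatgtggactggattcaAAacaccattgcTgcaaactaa
Prss1: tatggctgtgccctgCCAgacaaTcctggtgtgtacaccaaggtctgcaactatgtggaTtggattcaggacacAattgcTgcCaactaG
Prss2: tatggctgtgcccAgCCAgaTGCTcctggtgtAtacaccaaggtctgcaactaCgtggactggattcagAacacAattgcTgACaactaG

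Try4 differed from Try5 at 3 of these 90 bases, Prss1 at 9 and Prss2 at 16. Over the last 500 bases of each transcript, cut into 403 overlapping windows of 98 bases, 98 windows of Try5 were found unchanged in Try4, and in no other gene. A read from such a window cannot be given to one of these genes, and a counter that drops reads with more than one best match loses it. The window length was chosen here, since the read length is not given in the sources used here. Prss3 shared 210 of its 403 windows with Prss1, Gm10334 and Gm5771, Prss1 shared 126 and Try10 shared 43, so their counts could be understated, whereas Prss2, Pnliprp1 and Pnliprp2 shared none.

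The tables held 26498 cell barcodes, of which 3217 to 3633 belonged to each Slc7a5 fl/fl library and 9644 to 10004 to each Slc7a5 IEC-KO library, with 87922473 to 127094508 UMIs per library. A cell was called a Paneth cell when genes with symbols starting with Defa made up at least 30% of its UMIs, an "other" cell when they made up less than 20%, and "between" otherwise. This gave 2020 and 1950 Paneth cells in the Slc7a5 fl/fl libraries and 2019 and 2336 in the Slc7a5 IEC-KO libraries, or 8325 in all. The 9 Paneth cell markers outside the defensins, lysozyme (Lyz1) and matrilysin (Mmp7) among them, summed to 60212 to 80478 CPM in Paneth cells and to 27414 to 32275 CPM in other cells. Between cells held 66088 and 55499.7 CPM of them in the Slc7a5 fl/fl libraries, below the Paneth class, but 75393 and 62117 CPM in the Slc7a5 IEC-KO libraries, slightly above the 73231 and 60212 CPM of the Paneth class there. CPM stands for the UMIs of a gene in 1000000 UMIs of the same class and library. Depth went with genotype, since a Paneth cell had a median of 46965 and 52851.5 UMIs in the Slc7a5 fl/fl libraries against 13782 and 20159 in the Slc7a5 IEC-KO libraries. For this reason shares of positive cells are also given after each cell was thinned to 3500 UMIs, which left out no cell.

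Several facts about the libraries bear on every comparison. Slc7a5 was counted higher, not lower, in the libraries labelled Slc7a5 IEC-KO, with 0.964 and 0.813 CPM in Paneth cells of the Slc7a5 fl/fl libraries against 4.16 and 4.71; the 3′ tags lie outside the floxed exon and therefore check neither the deletion nor the labels. Xist RNA stood at 72.3 and 74.0 CPM in the Slc7a5 fl/fl libraries and at 363 and 397 in the others, and 4 Y-linked genes at 13.5 and 12.8 against 9.53 and 9.08. Each library thus held both Xist and Y-linked RNA, at levels that went with genotype and cannot be told apart from it. The paper describes its mice as littermates matched for sex and age. Whether each library held cells of both sexes was not tested. Between 14 and 132 barcodes were shared by a pair of libraries, and possible doublets were kept.

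Try5, one of the trypsinogens, was nearly absent from Paneth cells of the Slc7a5 fl/fl libraries and present in those of the libraries labelled Slc7a5 IEC-KO. The Paneth cells of the Slc7a5 fl/fl libraries held 3 and 2 Try5 UMIs, each in a different cell. Those of the Slc7a5 IEC-KO libraries held 1792 UMIs in 542 cells and 2662 UMIs in 836 cells. The genotypes did not overlap, and the libraries of each genotype lay close together. This describes a gene picked with these counts known. With library size alone as the scale, 88.5% of the 12492 genes tested in Paneth cells had a positive fold change. The share of all genes without overlap is not given.

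As a level, Try5 stood at 0.0318 and 0.0194 CPM in Paneth cells of the Slc7a5 fl/fl libraries and at 58.2 and 49.8 in the Slc7a5 IEC-KO libraries. The group means were 0.0256 ± 0.00877 and 54.0 ± 5.94 CPM (SD, n = 2 libraries each). Pooled over libraries, the ratio of the levels was 2091 with a 95% interval of 895 to 6442, a width set by the 5 UMIs of the Slc7a5 fl/fl side. Intervals here and below cover counting error only. An edgeR fit of Paneth cell sums over 12492 genes with TMM scaling gave a log2 fold change of 10.35. Its rank of 1 in that fit is no support. Try5 was picked with these counts known and passed the filter only through the Slc7a5 IEC-KO libraries. No SE is given for the fold change, since the 5 UMIs of the Slc7a5 fl/fl side leave its error as wide as the interval above. Thinned cells gave a log2 fold change of 8.69 from 0 and 1 UMIs against 402 and 449. A UMI count cannot separate more transcripts per cell from a different make-up of the class.

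The Try5 signal was spread unevenly over Paneth cells. In the Slc7a5 IEC-KO libraries 26.8% (95% exact binomial interval 24.9 to 28.8) and 35.8% (33.8 to 37.8) of Paneth cells had at least 1 Try5 UMI, against 0.149% and 0.103% in the Slc7a5 fl/fl libraries. After thinning the shares were 10.8% and 11.5%, against 0% and 0.0513%. An even spread in proportion to each cell's depth would have put at least 1 UMI in 55.6% and 63.6% of the Paneth cells. A single UMI was found in 332 and 508 cells, while 48 and 72 cells held 10 or more. The 202 and 234 cells with the most Try5, which are 10% of the class, held 80.6% and 73.9% of all Try5 UMIs, and the fullest cell held 51 and 52.

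**Figure D1:**
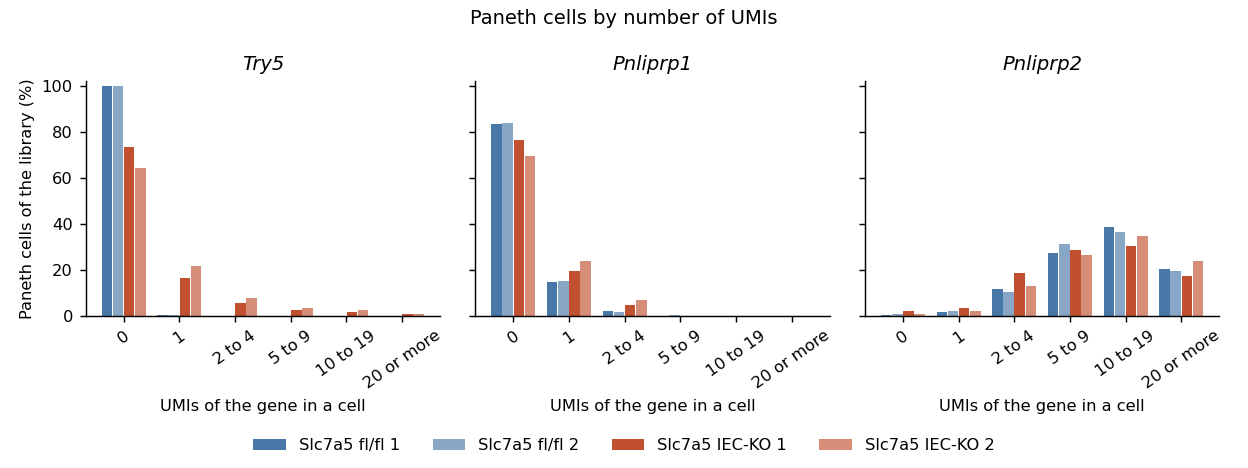
Share of Paneth cells (%) by the number of UMIs of Try5, Pnliprp1 and Pnliprp2 in the cell, one bar per library. Try5 is missing from nearly all Paneth cells of the Slc7a5 fl/fl libraries, whereas in the Slc7a5 IEC-KO libraries 48 and 72 cells hold 10 or more UMIs; Pnliprp1 does not exceed 5 UMIs in any Paneth cell, and Pnliprp2 is counted in 97.97% to 99.6% of them.

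A Try5-positive cell has at least 1 UMI in its full count, so deeper cells are positive more often by construction. Median depth was 15188 UMIs in Try5-positive against 13214 in Try5-negative Paneth cells of the first Slc7a5 IEC-KO library and 23347 against 18661 in the second, and thinned Pnliprp2 stood at 765 against 772 and at 668 against 626 CPM. The 48 and 72 cells with 10 or more Try5 UMIs had a median depth of 15436 and 20640.5 UMIs. Their thinned Pnliprp2 stood at 946 and 869 CPM. Reg4, a secreted lectin, stood at 8869 and 8099 CPM against 6923 and 6184 in Try5-negative cells. Reg4 correlated most with Try5 over these same cells, as given below, so its difference is no separate finding. Pnliprp1 went opposite ways, at 11.9 against 18.4 and at 35.7 against 22.9 CPM. Muc2 was lower in both libraries, at 1667 against 2171 and at 2083 against 2514 CPM, and so was Clps, at 2423 against 2839 and at 1881 against 2314.

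Try5 was not limited to the Paneth class as drawn by Defa symbols. Over all 27 alpha-defensin genes, between cells of the Slc7a5 IEC-KO libraries had a median share of 32.6% and 32.9% of UMIs. By that wider count 895 and 867 cells under 30% by symbol reached 30%, of which 26 and 27 were under 20% by symbol. Many between cells would thus be Paneth cells by the wider count. In the between class Try5 stood at 91.6 and 59.4 CPM (1273 and 1071 UMIs) in the Slc7a5 IEC-KO libraries. Both Slc7a5 fl/fl libraries held 0 UMIs there. The pooled Slc7a5 IEC-KO level was 80.2-fold that of 3 counts over the Slc7a5 fl/fl group. In other cells Try5 stood at 27.7 and 25.2 CPM (1196 and 1404 UMIs) against 0 and 0, which was 279-fold by the same measure. Other cells were thus lowest in both Slc7a5 IEC-KO libraries. The Paneth range of 49.8 to 58.2 and the between range of 59.4 to 91.6 did not overlap, but with 2 libraries these neighbours were not separated by more than their spread.

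Within the libraries labelled Slc7a5 IEC-KO the level followed the share of Defa symbols in an arch. From cells with under 5% of Defa UMIs through steps of 5 to 10%, 10 to 20%, 20 to 30%, 30 to 40% and at least 40%, Try5 stood at 12.7, 29.2, 71.6, 91.6, 63.0 and 42.7 CPM in the first library. The second library gave 13.5, 34.8, 49.5, 59.4, 56.9 and 27.2 CPM. The highest level in CPM fell in the 20 to 30% step in both, just under the limit for a Paneth cell by Defa symbols. In the second library the 56.9 CPM of the next step lay within its interval of 55.9 to 63.1. Mmp7 was also highest at 20 to 30%, with 3539, 3456, 3675 and 3233 CPM in the 4 libraries. Cells of this step are the between cells. In the Slc7a5 IEC-KO libraries, but not in the Slc7a5 fl/fl libraries, their summed Paneth markers, Mmp7 among them, were as high as in the Paneth class. The 8 goblet cell markers, Muc2 among them, summed higher in these between cells, at 86007 and 89171 CPM against 47863 and 52950 in Paneth cells. The class thus carried markers of both cell types. Per cell, between cells of the Slc7a5 IEC-KO libraries held 0.975 and 0.879 Try5 UMIs, against 0.888 and 1.14 in Paneth cells. Their median share over all alpha-defensin genes was 32.6% and 32.9%. In other cells, 61 and 51 cells with at least 5 Try5 UMIs held 50.5% and 46.1% of the Try5 UMIs of that class, and they had a median Defa share of 14.4% and 12.8% against 2.87% and 3.66% in the remaining cells.

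Free RNA and doublets can add counts to cells that do not express a gene. Cells bearing markers of tuft cells, chemosensory cells that should lack trypsinogen, were therefore set beside the others. With at least 3 of the 4 tuft markers there were 77 and 61 such cells in the Slc7a5 IEC-KO libraries, with a median depth of 5869 and 8689 UMIs. Of these, 6 (7.79%, 2.91 to 16.2) and 5 (8.20%, 2.72 to 18.1) had a Try5 UMI. Try5-positive cells made up 8.34% and 11.5% of other cells, whose median depth was 5750.5 and 8110.5, and after thinning 5.03% and 5.27% of other cells against 5.19% and 4.92% of the tuft-marker cells. The share in other cells thus lay near that in tuft-marker cells, and the thinned Paneth shares of 10.8% and 11.5% lay above both, though few tuft-marker cells stand behind the comparison. The tuft-marker cells held 31 and 24 Try5 UMIs, or 54.7 and 39.99 CPM, in those 6 and 5 cells. By level they thus lay close to the 58.2 and 49.8 CPM of Paneth cells and above the 27.7 and 25.2 CPM of other cells. The UMIs were concentrated in few barcodes among tuft-marker cells as among other cells, where single cells reached 27 and 66 UMIs. These values do not measure an even level of free RNA, and the part of free RNA and doublets in the Try5 counts was not tested. In the Slc7a5 fl/fl libraries 0 of 14 and 0 of 16 tuft-marker cells had Try5. Lyz1, a Paneth cell product, was counted in 100% of tuft-marker cells of the Slc7a5 IEC-KO libraries, at 5510 and 5925 CPM. Per 1000 Lyz1 UMIs, cells under 5% of Defa UMIs there held 3.68 and 3.85 Try5 UMIs. At 30 to 40% this was 3.24 and 3.84, and from 40% it was 2.81 and 2.22. The highest step gave 5.28 at 10 to 20% in the first library and 5.10 at 5 to 10% in the second.

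Xist and Y-linked UMIs were set beside Try5 in the same way. In thinned counts of Paneth cells of the libraries labelled Slc7a5 IEC-KO, 103 and 181 cells had no Y-linked UMI but 3 or more of Xist, and of these 33.0% and 34.8% were Try5-positive in full counts and 16.5% and 10.5% in thinned counts. Those with a Y-linked UMI and no Xist numbered 17 and 21, of which 7 and 3 were Try5-positive in full counts and 2 and 2 in thinned counts. Cells called either way carried Try5 in both libraries. The Slc7a5 fl/fl libraries held only 6 and 4 cells with Xist and no Y-linked UMI. None of these had Try5, with intervals that reach 45.9% and 60.2%. Their cells with a Y-linked UMI and no Xist numbered 58 and 50, also with 0 Try5 UMIs. So few cells do not allow a comparison of genotypes within both kinds, and the part of a possible mix of sexes was not tested.

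Try4, the nearest copy of Try5, was barely counted. In Paneth cells it had 0 and 0 UMIs in the Slc7a5 fl/fl libraries and 6 and 2 in the Slc7a5 IEC-KO libraries. The pooled Slc7a5 IEC-KO level was 6.26-fold that of 3 counts over the Slc7a5 fl/fl group, without counting error. The second Slc7a5 IEC-KO library, at 0.0374 CPM, lay below the 0.0561 CPM that 3 counts would give there. The between class of the Slc7a5 IEC-KO libraries held 4 and 2 UMIs and the other cells 5 and 1, and neither class held any in the Slc7a5 fl/fl libraries. Of the 5 and 2 Paneth cells with Try4, 4 and 2 also had Try5, with a median of 9 and 18.5 Try5 UMIs. The coding ends of both genes shown above differ at only 3 of 90 bases. Whether these few counts came from Try4 itself was not tested.

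Try10, Prss1, Prss2 and Prss3, the remaining trypsinogens, had 0 UMIs in every class of every library. For Prss2, whose 3′ end shares no window with another gene, the floor of 3 counts corresponds to 0.0318, 0.0290, 0.0974 and 0.0561 CPM in Paneth cells, and the exact 95% intervals of a count of 0 reach 0.0391, 0.0357, 0.120 and 0.0690 CPM. For Prss1, Prss3 and Try10 the shared windows leave the limit less certain. The near copies 2210010C04Rik, Gm5771, Gm10334, Gm2663 and 1810009J06Rik of the same locus were also at 0 in all libraries.

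**Figure D2:**
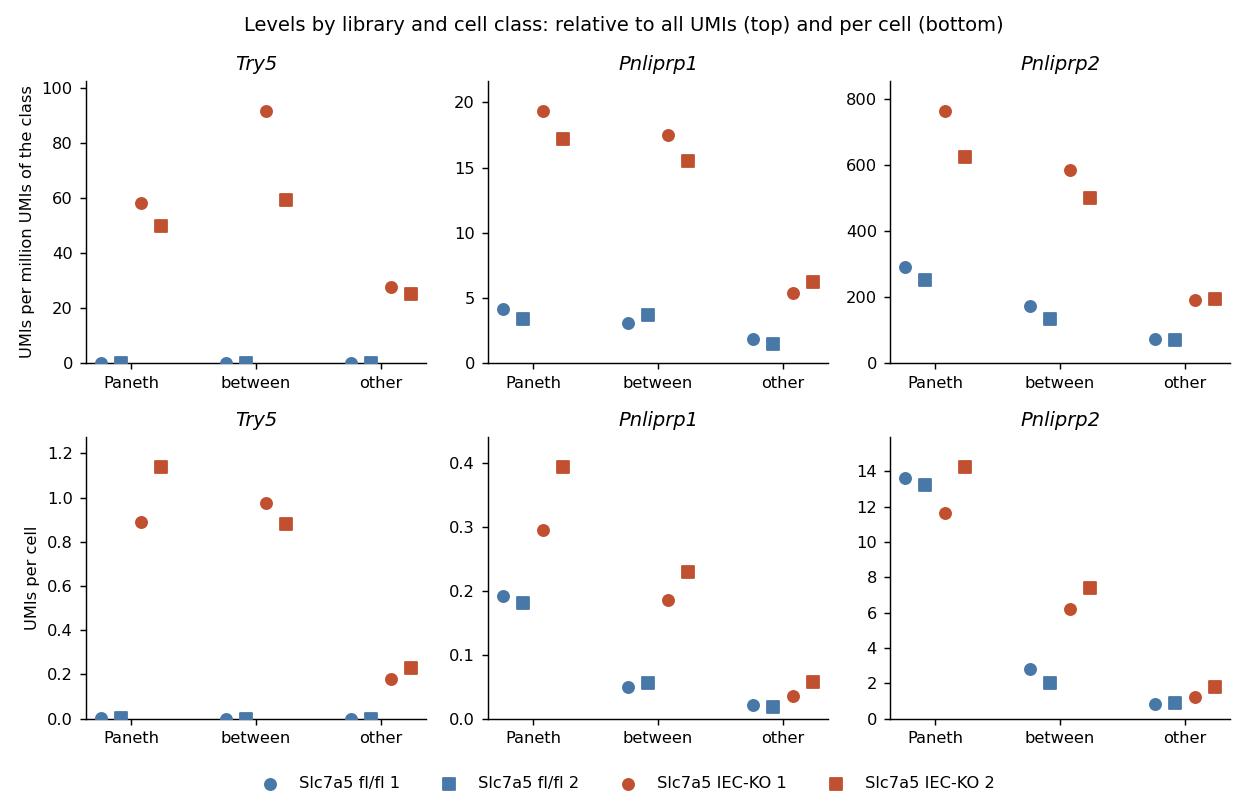
Try5, Pnliprp1 and Pnliprp2 by cell class (Paneth, between, other) in each of the 4 libraries, as CPM (upper row) and as UMIs per cell (lower row). Try5 separates the genotypes on both scales, while Pnliprp2 lies at 250 and 291 against 623 and 762 CPM in Paneth cells but at 11.6 to 14.2 UMIs per cell in all 4 libraries.

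Pnliprp1, the lipase relative, was counted in Paneth cells of both genotypes and stood higher where the label was Slc7a5 IEC-KO. Its Paneth UMIs numbered 389 and 353 in the Slc7a5 fl/fl libraries and 595 and 921 in the Slc7a5 IEC-KO libraries, which is 4.12 and 3.42 against 19.3 and 17.2 CPM. The means were 3.77 ± 0.497 and 18.3 ± 1.48 CPM (SD, n = 2), a ratio of 4.79 (4.39 to 5.24). The genotypes did not overlap on this scale, on which 88.5% of the 12492 genes tested in Paneth cells had a positive fold change. Per cell the difference was smaller but also without overlap, at 0.193 and 0.181 against 0.295 and 0.394 UMIs. The log2 fold change was 1.65 (SE 0.092) with TMM scaling and 2.27 with library size alone.

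The share of Paneth cells with Pnliprp1 was 16.7% and 16.4% in the Slc7a5 fl/fl libraries and 23.7% and 30.5% in the Slc7a5 IEC-KO libraries, and 1.29% and 1.18% against 6.64% and 7.02% after thinning. Unlike Try5, Pnliprp1 was found in about as many cells as an even spread by depth would give, which was 17.3%, 16.3%, 24.8% and 31.4%. Other cells held less of it, with 1.86 and 1.43 against 5.41 and 6.24 CPM, and between cells 3.11 and 3.72 against 17.5 and 15.5. The Slc7a5 IEC-KO libraries were higher in each class. Between and Paneth cells of the Slc7a5 fl/fl libraries were not separated, since the 6 and 5 UMIs of the between class allow 1.14 to 6.76 and 1.21 to 8.69 CPM. Of the 14, 16, 77 and 61 tuft-marker cells, 1, 0, 1 and 7 had a Pnliprp1 UMI. In the first Slc7a5 IEC-KO library that was 1.30% against 3.22% of other cells. The second gave 11.5% at 11.7 CPM against 5.35% at 6.24 CPM in other cells.

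Pnliprp2, the galactolipase, was counted in nearly every Paneth cell. There were 27498 and 25813 UMIs in Paneth cells of the Slc7a5 fl/fl libraries and 23452 and 33286 in those of the Slc7a5 IEC-KO libraries, in 99.6%, 99.3%, 97.97% and 99.4% of the cells. The level was 291 and 250 CPM against 762 and 623, with means of 271 ± 29.2 and 692 ± 98.3 (SD, n = 2) and a ratio of 2.50 (2.47 to 2.53). The genotypes did not overlap in CPM. Per cell they did, at 13.6 and 13.2 against 11.6 and 14.2 UMIs, in cells whose depth differed with genotype. The difference lay in the share of a cell's UMIs and not in the raw count per cell. After thinning, a Pnliprp2 UMI was found in 60.8% and 55.2% of Paneth cells against 84.8% and 82.0%. Whether the amount of Pnliprp2 RNA per cell differed was not tested.

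The scale thus sets the size of the Pnliprp2 difference. The log2 fold change in Paneth cells was 0.74 (SE 0.0997) with TMM scaling and 1.35 with library size alone, and over all cells of a library together it was 0.02 with TMM and 0.85 with library size alone. With library size alone the median of all 12492 genes in Paneth cells shifted by 0.62 on the log2 scale, and 8795 of them were called higher. All 27 alpha-defensin genes together took a median of 63.9% and 66.2% of a Paneth cell's UMIs in the Slc7a5 fl/fl libraries and 51.3% and 52.0% in the Slc7a5 IEC-KO libraries. The part of this change of make-up in the shift was not tested.

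Pnliprp2 was highest in Paneth cells in all 4 libraries. Between cells stood at 173 and 133 against 584 and 498 CPM, and other cells at 73.2 and 68.9 against 190 and 193. In each class the Slc7a5 IEC-KO libraries were higher. Against the defensin share the level rose to the 30 to 40% step, at 339, 266, 774 and 635 CPM, in each of the libraries. Try5 was highest in CPM at 20 to 30%, though the second Slc7a5 IEC-KO library did not separate these steps for Try5. A Pnliprp2 UMI was found in 35.7%, 56.3%, 55.8% and 75.4% of tuft-marker cells, against 52.4%, 55.3%, 55.9% and 72.1% of other cells. In other cells of the Slc7a5 IEC-KO libraries the Pnliprp2 level rose with the share of Defa UMIs. It went from 118 and 139 CPM under 5% to 403 and 326 CPM at 10 to 20%. Lyz1 rose over the same steps, from 3436 and 3514 to 13556 and 11707 CPM. Per 1000 Lyz1 UMIs, the steps under 5%, 5 to 10% and 10 to 20% gave 34.4, 22.9 and 29.8 Pnliprp2 UMIs in the first library. The second gave 39.6, 30.5 and 27.8. The part of free RNA in these counts was not tested. The Pnliprp2 UMIs were less concentrated than those of Try5, with 27.2% to 28.9% of them in the 10% of Paneth cells that held the most. They were not even, since an even spread by depth would have reached 99.75%, 99.78%, 99.84% and 99.94% of Paneth cells. The shares counted were 99.6%, 99.3%, 97.97% and 99.4%.

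**Figure D3:**
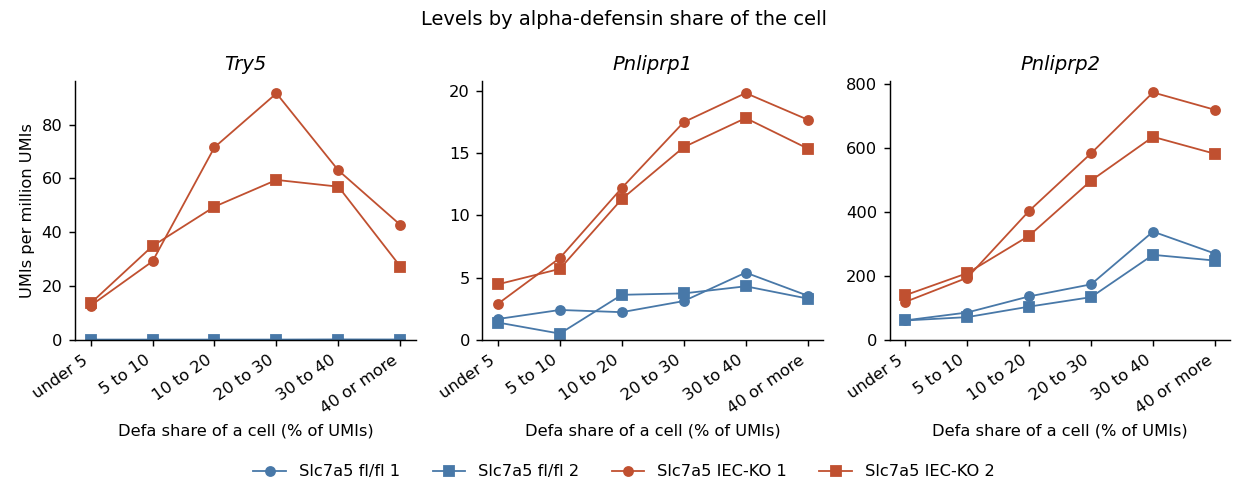
Level of Try5, Pnliprp1 and Pnliprp2 (CPM) in 6 steps of the share of Defa UMIs per cell (%), one line per library. Try5 is highest at 20 to 30% in both Slc7a5 IEC-KO libraries (91.6 and 59.4), and Pnliprp2 is highest at 30 to 40% in all 4 libraries.

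No gene followed Try5 closely from cell to cell. Over 2019 and 2336 Paneth cells of the libraries labelled Slc7a5 IEC-KO, the 2296 genes with at least 500 UMIs in each were ranked by the lower of the correlations of log-scaled thinned counts in both libraries. The 10 highest were Reg4, Itln1, Gm15284, Gm14851, Chchd10, Ciapin1, Tmem214, Pnliprp2, Ppan and Arf5. Reg4 reached only 0.113, Itln1, a lectin of Paneth and goblet cells, 0.097, and Pnliprp2 0.054. For Pnliprp1 the first was Pnliprp2, at 0.097. In counts this sparse such values are a ranking and no finding, and cells of a library share its free RNA and depth.

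The genes that work with trypsinogen in the pancreas were then compared by list in the same Paneth cell sums, by edgeR's quasi-likelihood test with Benjamini-Hochberg adjustment over all genes. Of the 12492 genes tested, 39.9% were called at an adjusted p under 0.05, made up of 20.1% that were higher and 19.8% that were lower than in Slc7a5 fl/fl, so a call by itself is frequent. With library size alone the split was 8795 higher and 454 lower, and 88.5% of the genes had a positive fold change. CPM follows library size. A CPM that is higher in Slc7a5 IEC-KO without overlap, as given below for some genes, is therefore no support by itself. Fold changes below are log2 values with TMM scaling, on which the median gene did not move, and levels are CPM.

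Other pancreatic serine proteases were tested for 4 of the 8 listed genes, and 2 rose (median log2 fold change 0.27). Cela1, an elastase, stood at 10.9 and 10.7 against 25.6 and 21.01 CPM (log2 fold change 0.47, SE 0.089, edgeR adjusted p = 2.0e-04). Klk1, tissue kallikrein, stood at 237 and 195 against 407 and 415 (0.31, SE 0.082, edgeR adjusted p = 0.0042). For both the genotypes did not overlap, and Klk1 lost its call when the second Slc7a5 fl/fl library was left out (edgeR adjusted p = 0.216) or the cells were thinned (0.0641). Ctrb1, a chymotrypsinogen, with 11 to 21 UMIs per library, did not pass the test at 0.23 (edgeR adjusted p = 0.637), though it was called higher with library size alone, and Ctrl, a chymotrypsin-like protease, did not at -0.51 (edgeR adjusted p = 0.295).

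The lipase partners Clps and Pla2g1b fell. Clps, the colipase that anchors pancreatic lipase to fat droplets, had 400268 and 417923 UMIs against 83421 and 116944, or 4239 and 4046 against 2709 and 2187 CPM (-1.37, SE 0.13, edgeR adjusted p = 1.5e-08). Pla2g1b, the pancreatic phospholipase, had 77 and 53 against 7 and 13 UMIs (-2.09, SE 0.34, edgeR adjusted p = 3.6e-05). Both genes stood lower in each Slc7a5 IEC-KO library, with library size alone as well. The carboxypeptidase genes Cpa1 and Cpb1 were at 0.

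Rnase1, pancreatic ribonuclease, rose from 214 and 176 to 429 and 372 CPM (0.43, SE 0.091, edgeR adjusted p = 7.2e-04; 0.0565 after thinning), while Amy1, an amylase, was at 6 to 16 UMIs and 0.15 (edgeR adjusted p = 0.848). Of the zymogen granule proteins, Zg16, a lectin that goblet cells also make, fell from 3859 and 3637 to 2785 and 2958 (-1.001, SE 0.11, edgeR adjusted p = 2.5e-07). Sycn, syncollin, had 123 and 122 against 43 and 61 UMIs and fell by 0.62 (SE 0.19, edgeR adjusted p = 0.0119). The Sycn call rested on scaling and on 1 library, since its value with library size alone was 0.0031, and without the second Slc7a5 IEC-KO library it was -0.41 (edgeR adjusted p = 0.218).

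**Figure D4:**
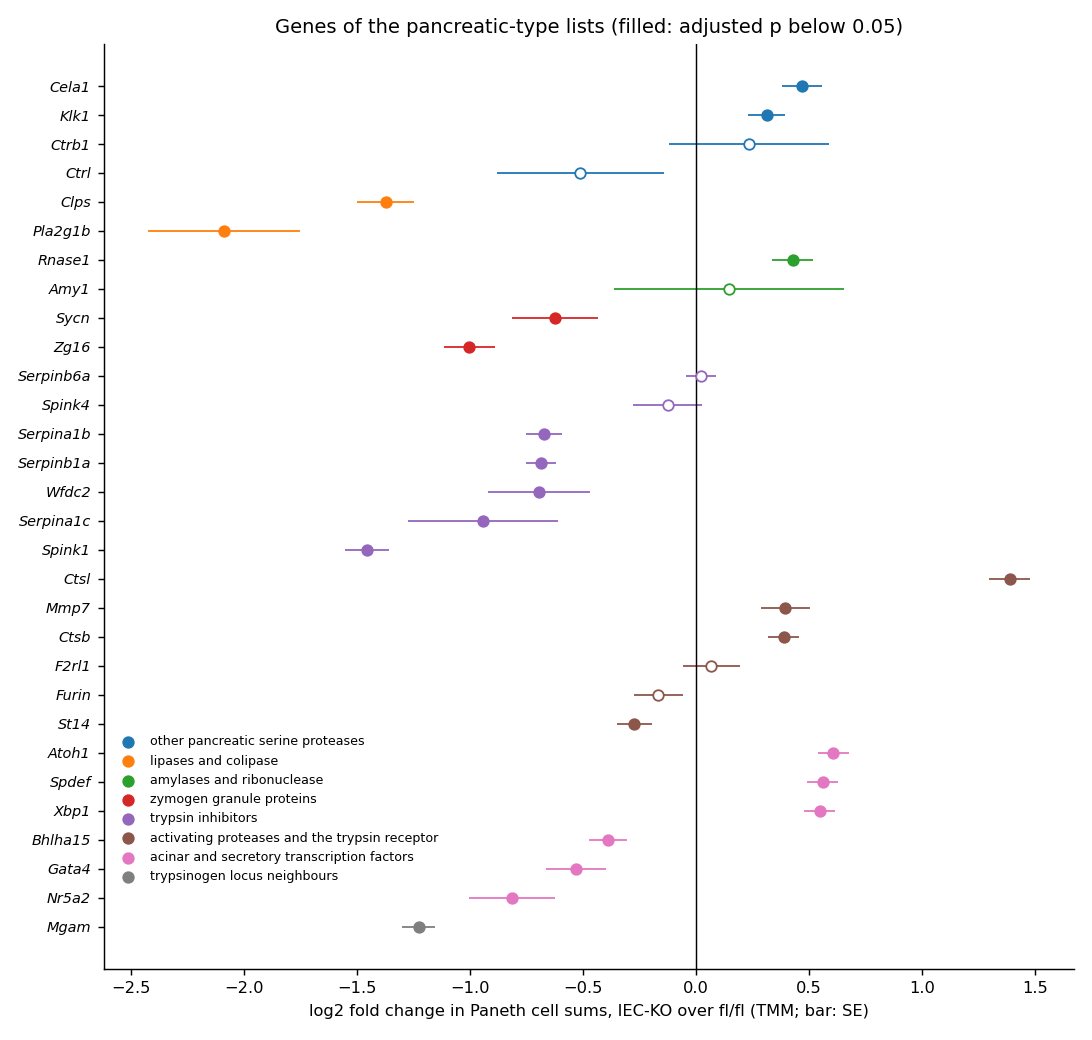
Log2 fold change (Slc7a5 IEC-KO over Slc7a5 fl/fl, TMM scaling) with its SE for 30 listed genes tested in Paneth cell sums, by list; filled points have an edgeR adjusted p under 0.05. Spink1 at -1.46 and Clps at -1.37 stand lower and Ctsl at 1.39 stands higher, while Cela1 and Klk1 lie at 0.47 and 0.31.

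In a list of trypsin inhibitors and related protease inhibitors, 5 of the 7 genes tested fell on the TMM scale and none rose (median log2 fold change -0.69). With library size alone 2 were higher and 1, Spink1, was lower. The list mixes inhibitors of different proteases, so these numbers do not measure a loss of trypsin inhibition. Spink1, the pancreatic secretory trypsin inhibitor, stood at 160 and 138 against 69.5 and 96.8 CPM (-1.46, SE 0.098, edgeR adjusted p = 1.0e-10), without overlap. Serpinb1a, a neutrophil-elastase type inhibitor, was at 50.8 and 46.3 against 44.4 and 48.0 CPM, with overlap on that scale, and at -0.69 with TMM (SE 0.067, edgeR adjusted p = 3.3e-08). Serpina1c and Wfdc2 were called at -0.94 and -0.69 (edgeR adjusted p = 0.0273 and 0.0169) on 6 to 44 and 22 to 120 UMIs per library. Spink4, a goblet and Paneth cell product, was not called at -0.13 (edgeR adjusted p = 0.552).

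Those low-count calls did not survive the loss of single libraries. Serpina1c lost its call without the first Slc7a5 fl/fl library (edgeR adjusted p = 0.0621), the second (0.0603) or the first Slc7a5 IEC-KO library (0.216), and Wfdc2 without the second Slc7a5 fl/fl library (0.118) or the first Slc7a5 IEC-KO library (0.123). The Spink1 call held without any one library. Serpina1c, Wfdc2, Sycn and St14 were also not called by DESeq2 or with Paneth cells from 40% of Defa UMIs.

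A list of activating and processing proteases, with the trypsin receptor F2rl1, had 3 of 6 tested genes higher and 1 lower on the TMM scale. With library size alone all 6 were higher. The list mixes roles, so these numbers do not measure activation of trypsinogen. Ctsl, cathepsin L, stood at 3.89 and 3.69 against 16.3 and 14.4 CPM (1.39, SE 0.091, edgeR adjusted p = 7.1e-11). Ctsb, cathepsin B, which can activate trypsinogen, stood at 29.3 and 28.1 against 59.0 and 56.4 (0.39, SE 0.068, edgeR adjusted p = 9.8e-05). The genotypes did not overlap for either gene.

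Mmp7, the matrilysin that processes mouse alpha-defensins, stood at 1522 and 1364 against 3073 and 2737 CPM (0.40, SE 0.11, edgeR adjusted p = 0.0056), but its call was lost without the first Slc7a5 fl/fl library (edgeR adjusted p = 0.0622) or the second (0.122). St14, matriptase, was lower with TMM (-0.27, SE 0.078, edgeR adjusted p = 0.0080) and higher with library size alone (0.35), at 11.2 and 10.1 against 14.0 and 13.2 CPM, and it lost its call without the first Slc7a5 fl/fl library (edgeR adjusted p = 0.0714) or the second Slc7a5 IEC-KO library (0.104). Tmprss15, the enteropeptidase that activates trypsinogen in the gut, had 5, 3, 0 and 1 UMIs and was too low to test.

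Transcription factors of acinar and secretory cells were split on the TMM scale, with 3 of 6 tested genes higher and 3 lower, and 4 higher and none lower with library size alone. Atoh1, which sets the secretory fate of gut cells, stood at 24.5 and 21.6 against 53.6 and 54.2 CPM (0.61, SE 0.067, edgeR adjusted p = 2.3e-07), Spdef at 31.6 and 27.7 against 64.9 and 69.1 (0.56), and Xbp1, of the unfolded protein response, at 41.0 and 36.8 against 86.9 and 87.3 (0.55). Nr5a2, a nuclear receptor of acinar and crypt cells, stood at 1.39 and 1.14 against 1.10 and 1.10 (-0.81, edgeR adjusted p = 0.0017), and its call was lost with library size alone (-0.19). Ptf1a, the factor that defines acinar cells, was at 0 in every library.

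Of the 14 genes around the trypsinogens on chromosome 6 that the tables hold, only Mgam, the brush-border maltase-glucoamylase, had enough counts for a test. It fell from 21.1 and 19.4 to 12.8 and 13.7 CPM (-1.23, SE 0.072, edgeR adjusted p = 1.2e-11).

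Markers of other cell types moved together with some of these genes. The 6 enterocyte markers all fell in Paneth cell sums, with either scaling. They summed to 811 and 775 CPM in the Slc7a5 fl/fl libraries against 398 and 474. Mgam, Spink1 and Clps fell as well. In the first Slc7a5 fl/fl library Clps stood at 854 CPM under 5% of Defa UMIs and at 4686 at 30 to 40%. The enterocyte markers there summed to 811 CPM in Paneth cells and 2723 in other cells. Of 9 Paneth markers tested, 4 rose with TMM and 3 fell, namely Lyz1 (-1.69), Ang4 (-1.60) and Mptx2 (-1.63). With library size alone 6 rose and the same 3 fell. All 4 tuft markers fell with TMM, and of the 4 stem or transit amplifying markers 3 fell and 1 rose. With library size alone no tuft marker was called, and of the stem or transit amplifying markers 1 rose and 1 fell. Of the 8 goblet cell markers, 1 rose and 4 fell, Zg16 among them, and with library size alone 4 rose and 1 fell; the summed level was 41759 and 37417 against 47863 and 52949.8. The 5 immune cell markers gave 3 to 12 UMIs per library. The part of these cell types in the listed changes was not tested.

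Most genes that define pancreatic acinar cells were at or near 0 in the same Paneth cells. Of the 13 acinar markers in the tables, Cela2a, Cpa1, Cpb1, Cel, Amy2a5, Ptf1a and Rbpjl were at 0 in Paneth cells of every library, and Cela3b and Pnlip had 1 UMI each in 1 library. The list summed to 12.6 and 12.3 against 27.5 and 22.8 CPM, nearly all of it Cela1.

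In other cells, where 33.6% of 12377 genes were called (17% higher and 16.7% lower), several of the same enzymes and inhibitors were called. With library size alone 1172 genes were higher and 3787 lower there, against 2102 and 2061 with TMM. The make-up of this class differed with genotype. Its stem or transit amplifying markers summed to 214 and 214 against 101 and 113 CPM, and its enteroendocrine markers to 378 and 372 against 1339 and 1210. A fold change there need not be one within a cell type. Free RNA of a library can reach both classes, so likeness to Paneth cells is no separate support. Cela1 (0.56), Klk1 (0.71), Rnase1 (1.08) and Ctsl (1.19) were higher, and Clps (-0.49), Spink1 (-0.91) and Mgam (-0.84) were lower, each with an edgeR adjusted p of at most 1.1e-05. Spink4 rose in other cells (0.47, edgeR adjusted p = 8.6e-05) and was not called in Paneth cells; the difference between the classes was not tested. The member genes in other cells differed by log2 fold changes of 1.96 (Pnliprp1) and 1.58 (Pnliprp2).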

How the data were processed

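The member genes and gene lists were chosen with earlier results of these data known. Whole-number UMI counts per gene and barcode were deposited by the authors, made by alignment to mm10. The study's methods and the submitters' processing notes give different Cell Ranger versions (2.1.1 in the notes). The deposited tables hold barcodes of 4 libraries, the lowest with 3843 UMIs.

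Cells were classed by the share of Defa symbols (30% and 20%), and counts were summed per library and class. Sums were tested with edgeR 4.0.16 (R 4.3.3; filterByExpr, TMM, quasi-likelihood, 2 libraries per genotype, Benjamini-Hochberg 0.05). DESeq2 1.42.0 was an alternative. Other alternatives were the scaling, filters, class limits, thinning, doublet removal, a replicate block and leaving out a library. Scripts were tested on simulated data. Floors are 3 counts, and intervals are exact at 95%. Each SE is the absolute log2 fold change divided by the square root of its F statistic. Up to 4 called genes per list with the largest change are named, besides genes read for their role. The replicate numbers pair nothing beyond the number, and their check is given with the processing dependence. A tested gene of the lists is not reported here.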

Additional observations from a re-analysis of the deposited data

How the results depend on the processing

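Counts of genes called in Paneth cells (2515 higher, 2475 lower) became 8795 and 454 with library size alone, 1636 and 1487 with DESeq2, 931 and 909 after thinning (8828 genes tested) and 1404 and 1258 with Paneth cells from 40% of Defa UMIs. Those in other cells (2102 and 2061) became 1172 and 3787, 1272 and 1220, and 1204 and 1136 under the first 3 of these. Without one library they ranged from 1971 to 2318 and 1979 to 2238 in Paneth cells and from 1389 to 2165 and 1452 to 2093 in other cells, where 1389 came without the first Slc7a5 fl/fl library and 1397 without the second. The cause was not tested.

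The log2 fold changes of Try5, Pnliprp1 and Pnliprp2 in Paneth cells became 10.96, 2.27 and 1.35 with library size alone, and Try5 8.69 after thinning. Without one library they ranged from 10.08 to 10.66, 1.55 to 1.78 and 0.56 to 0.91. Try5 gave no value with at least 10 counts in every library. All 3 stayed positive in every alternative run. These runs reuse the same libraries for genes picked with their counts known, so the sign is no separate support.

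Of 273 values of 20 named genes, 245 kept direction and call, 26 lost the call and 2 reversed, St14 (0.35) and Sycn (0.0031), both with library size alone. All alpha-defensin genes as the class rule, an alternative chosen after seeing the data, gave 2708 and 2698 in Paneth cells.

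Samples with the same replicate number deviated with a correlation of 0.034, and with 2 pairs they share only a number. The replicate block gave 2568 and 2543 genes in Paneth cells and 2385 and 2338 in other cells, and 10.36, 1.66 and 0.73 for the 3 genes. Depth limits Try4 and the genes at 0.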
